A study of Homo sapiens with 6 samples.

Results

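The semaphorin, ephrin and SLIT guidance genes are the ligands and receptors of 3 families of axon guidance signals. They were taken as every gene whose symbol is a class 3 to 7 semaphorin, a plexin, a neuropilin, an ephrin, an Eph receptor, a SLIT or a ROBO receptor. The rule uses symbols and no measured value, but it was chosen with earlier results of these data known. It gave 60 of the 20347 gene symbols in the expression table. RNA-seq libraries were made from PaTu8988t, a human pancreatic ductal adenocarcinoma (PDAC) cell line, grown in DMEM with 5% fetal bovine serum. The control group was 3 replicates of PaTu8988t cells that carried the Lenti-CRISPR V2 vector with an unspecific guide. The SAMD1 KO group was 3 clonally independent PaTu8988t lines in which SAMD1, a chromatin protein that binds unmethylated CpG islands, had been targeted with CRISPR/Cas9. Each knockout library is therefore 1 clone, and what a clone gained or lost when it was isolated cannot be told apart from the loss of SAMD1. No label says that the control replicates came from separate isolates, so their spread may be technical.

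Semaphorins are secreted or membrane-bound ligands that signal through plexins. Most class 3 members also need a neuropilin as the part of the receptor that binds them. Ephrins are anchored to the cell surface and bind Eph receptor tyrosine kinases on a neighbouring cell, with signals running into both cells. SLIT proteins are secreted and act on ROBO receptors. All 3 systems steer growing axons by repulsion or attraction. In epithelial cells they also act on cell contact, sorting, adhesion and movement.

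Library totals were between 35589477 and 45172216 reads. SAMD1 itself, on chromosome 19, had normalized counts of 2231, 2382 and 2299 in control cells and of 874, 1082 and 825 in the SAMD1 KO clones. The transcript was at 40.2% of the control mean, without overlap, and the log2 fold change was -1.32 ± 0.10 (SE, limma adjusted p = 0.000724). A transcript can remain where its reading frame is broken, so this level does not measure the protein. Of the epithelial markers KRT8, KRT18 and EPCAM were expressed in every library and KRT19 was listed at 0 in every library. The summed normalized count of 4 epithelial markers was 62651 to 65864 in control cells and 67533 to 108463 in the clones. That of 5 endothelial markers was 89.2 to 98.5 in control cells and 36.6 to 89.9 in the clones, that of 5 fibroblast markers 52.8 to 55.0 and 17.99 to 44.9, that of 5 immune markers 4.58 to 8.81 and 4.94 to 11.2, and that of 5 neural and glial markers 11.4 to 22.5 and 8.10 to 15.6.

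Of the 60 guidance genes 43 passed a minimum mean normalized count of 10 and were tested with limma on log2(normalized count + 1), together with all 12773 genes of the table that passed. To be called higher or lower, a gene needed an unadjusted p below 0.01 and a change of more than 0.5 on the log2 scale. A fold change on this scale understates the change of low genes. In SAMD1 KO cells 8 guidance genes rose, EFNB2, SEMA3B, PLXNB1, EFNA2, SEMA6B, EPHB2, ROBO1 and NRP1, and 2 fell, SEMA3E and SEMA7A. The other 33 tested genes did not pass. The 8 higher genes are 18.6% of the tested guidance genes, and 5.77% of all tested genes were called higher. The 2 lower genes are 4.65%, and 2.08% of all tested genes were called lower. An adjusted p below 0.05 was reached by 10 guidance genes, 23.3% of those tested, where the share over all tested genes was 13.0%. The median log2 fold change of the 43 genes was 0.18 and that of all tested genes -0.01. The 3 control and 3 SAMD1 KO values did not overlap for 15 guidance genes, 34.9% of those tested, and for 37.8% of all tested genes, so that a lack of overlap was about as frequent among the guidance genes as in the table as a whole. A lone gene can reach no smaller exact two-sided permutation p than 0.1 with 3 against 3 libraries, and all 10 called genes reached it.

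**Figure D1:**
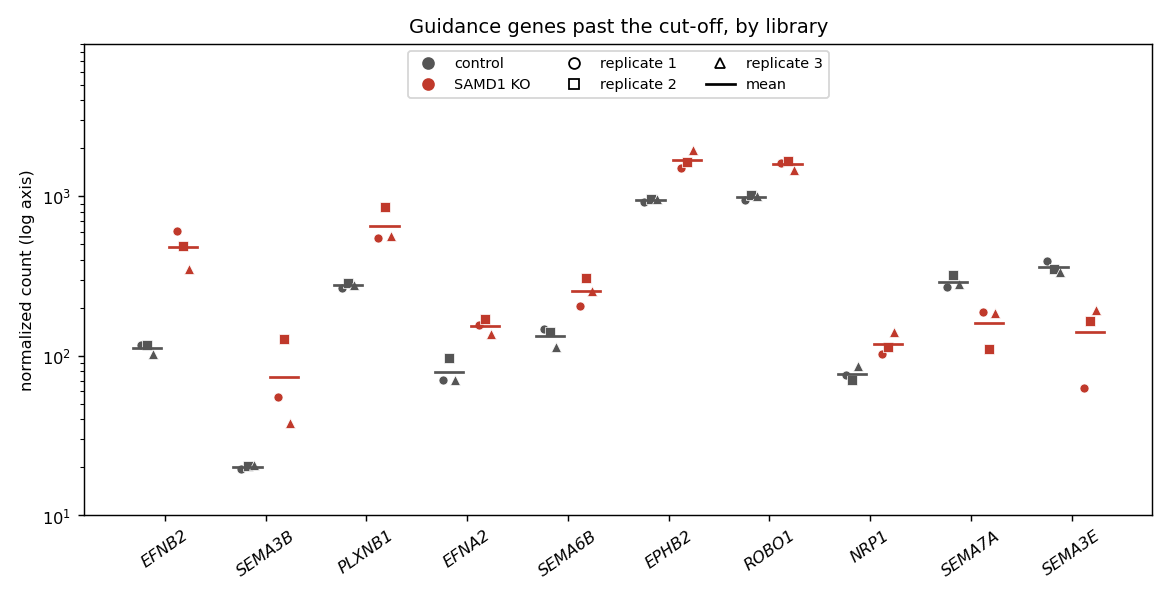
Normalized counts on a log axis of the 10 guidance genes past the cut-off. Each point is 1 library, grey for control cells and red for SAMD1 KO clones, with the marker shape giving the replicate, and the short line is the group mean. The 3 red points of EFNB2, between 350 and 610, lie above its grey points, between 103 and 117. The red points of SEMA3E and SEMA7A lie below their grey points.

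The ligands and the receptors were counted apart. Of the 24 ligands tested, 4 rose, or 16.7%, and 2 fell, or 8.33%, with limma. Of the 19 receptors tested, 4 rose, or 21.1%, and 0 fell with limma. Over all tested genes 5.77% were called higher and 2.08% lower. A fold change above 0 was seen for 15 ligands, or 62.5%, and for 16 receptors, or 84.2%. It was seen for 48.8% of all tested genes. As only 2.08% of all tested genes were called lower, a count of 0 among 19 is no result about the receptors. At an unadjusted p below 0.05 with no fold limit 7 receptors were higher and 0 lower, where the shares of all tested genes were 16.1% and 13.5%, and with edgeR and with DESeq2 on the recovered reads 0 of the 19 were called lower. The median log2 fold change was 0.11 for the ligands and 0.23 for the receptors. The difference between ligands and receptors was not tested.

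The largest change of the 43 tested guidance genes was in EFNB2, which codes for ephrin-B2, a transmembrane ephrin that binds EphB receptors and EphA4. EFNB2 lies on chromosome 13 (chr13:106489745-106535662 in hg38, minus strand). Its normalized counts were 117, 117 and 103 in control cells and 610, 486 and 350 in SAMD1 KO clones 1, 2 and 3. Every clone was above every control library, and the lowest clone was still far above the highest control. The mean rose 4.29-fold, from 112 ± 8.06 to 482 ± 130 (SD, n = 3), and the log2 fold change was 2.06 ± 0.20 (SE, adjusted p = 0.00147). A change in the number of cells that express a gene and a change in the RNA per cell cannot be told apart in these bulk libraries, here or for any gene that follows.

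EFNA2, on chromosome 19 (chr19:1285873-1301431), codes for ephrin-A2, a GPI-anchored ephrin. It had normalized counts of 70.9, 96.9 and 71.0 in control cells and of 155, 169 and 137 in the clones, again without overlap. EFNA2 rose 1.93-fold, with a log2 fold change of 0.95 ± 0.18 (SE, adjusted p = 0.0153). The other 5 ephrins tested, EFNA1, EFNA3, EFNA4, EFNA5 and EFNB1, did not pass and had log2 fold changes from -0.25 to 0.28. EFNA3 and EFNA4 are neighbours on chromosome 1 that share an annotated read-through gene, so reads may be split between them. EFNB3 stayed under the minimum, with 1.14 to 9.16 normalized counts.

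The make-up of the ephrins changed with EFNB2 and EFNA2. Levels were compared between genes as the normalized count per kb of exon. EFNA1 was the most abundant ephrin per kb in control cells, at 319 ± 26.4, and it was at 271 ± 57.3 in the clones (SD, n = 3). EFNB2 was the least abundant of the 7 tested ephrins in control cells, at 22.5 ± 1.61, and was at 96.3 ± 26.0 in the clones. Its share of the summed ephrin level per kb was 3.19%, 2.77% and 2.77% in control cells and 14.6%, 10.6% and 8.87% in the clones. The share of EFNA2 was 3.94% to 4.72% in control cells and 7.15% to 7.65% in the clones. The share of EFNA1 was 39.9% to 43.3% in control cells and 27.0% to 36.6% in the clones. The summed ephrin level per kb was 774 ± 63.3 in control cells and 847 ± 64.3 in the clones, a difference close to the spread within each group.

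Among the Eph receptors EPHB2 was the one that rose. EPHB2 codes for a receptor tyrosine kinase that binds ephrin-B ligands, and lies on chromosome 1 (chr1:22710839-22921500). Its normalized counts were 925, 967 and 966 in control cells and 1510, 1638 and 1952 in the clones. The control libraries were close together and all clones lay above them. EPHB2 rose 1.78-fold, with a log2 fold change of 0.83 ± 0.10 (SE, adjusted p = 0.00312), and kept an adjusted p below 0.05 when each of the 6 libraries was left out in turn. The other receptors tested were EPHA2, EPHA4, EPHA10, EPHB3 and EPHB4, with log2 fold changes from 0.04 to 0.75 and adjusted p of 0.322 or more. EPHB4, a receptor of ephrin-B2 well known from blood vessels, had 1978, 2094 and 1916 normalized counts in control cells and 2342, 2589 and 1905 in the clones, and the groups overlapped. Its log2 fold change was 0.18 ± 0.11 (SE). EPHA4 had 25.2, 16.6 and 24.1 in control cells and 15.8, 63.9 and 49.5 in the clones, so that clone 1 was below and clones 2 and 3 above all controls.

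EPHA2 was the most abundant Eph receptor, and of all guidance genes the one with the highest level per kb. It stood at 3957 ± 221 per kb in control cells and at 4203 ± 409 in the clones (SD, n = 3), and held 89.3% and 87.8% of the summed Eph level per kb. EPHA2 ranged from 15828 to 17439 normalized counts in control cells and from 15609 to 18971 in the clones, which overlapped. Next to this receptor the rise of EPHB2, from 76.1 ± 1.88 to 136 ± 18.2 per kb, was small in level.

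The other 8 Eph receptors stayed under the minimum. EPHA3, EPHA6 and EPHA7 had 0 reads in every library, which allows up to 3 reads in a library, or 2.59 to 3.44 normalized counts. EPHA5, EPHB6, EPHA1 and EPHA8 reached at most 11.7 normalized counts. EPHB1 was just under the minimum, and is described here after its values were seen. It had 21.7, 18.6 and 9.16 normalized counts in control cells and 3.96, 3.46 and 0.899 in the clones. All clones were below all control libraries, at no more than 4 reads. With no minimum EPHB1 was called lower, with a log2 fold change of -2.25 and an adjusted p of 0.0295, in the direction opposite to EPHB2.

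The starts of EFNB2, EPHB2 and EFNA2 are shown because these genes, which rose in all clones, begin in CpG-rich DNA, and that of SEMA3E because it fell and lies in CpG-poor DNA. Each is the 250 bases before 1 annotated start on the strand of the gene, from RefSeq on GRCh38.p14, 5′ to 3′. EFNB2 and EFNA2 had 1 listed start, but EPHB2 and SEMA3E had 2, as had ROBO1, PLXNB1 and SEMA7A below. Only 1 window per gene was used, so the CpG content given is that of 1 start. The capitals mark GCGC, a motif that reads the same on both strands and whose overlapping copies were all counted. The windows are chr13:106535663-106535912 (minus strand) for EFNB2, chr1:22710589-22710838 (plus strand) for EPHB2, chr19:1285623-1285872 (plus strand) for EFNA2 and chr7:83649140-83649389 (minus strand) for SEMA3E.
EFNB2: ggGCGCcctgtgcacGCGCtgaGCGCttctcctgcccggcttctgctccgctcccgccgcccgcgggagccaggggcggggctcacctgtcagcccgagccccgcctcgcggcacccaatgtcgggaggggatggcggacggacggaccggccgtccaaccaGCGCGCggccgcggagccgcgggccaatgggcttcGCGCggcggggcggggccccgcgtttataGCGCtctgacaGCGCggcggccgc
EPHB2: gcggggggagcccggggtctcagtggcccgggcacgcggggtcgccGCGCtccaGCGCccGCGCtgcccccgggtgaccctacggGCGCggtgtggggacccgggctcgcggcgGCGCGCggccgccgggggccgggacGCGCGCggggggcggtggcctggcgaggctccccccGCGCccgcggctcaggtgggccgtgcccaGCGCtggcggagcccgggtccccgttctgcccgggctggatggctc
EFNA2: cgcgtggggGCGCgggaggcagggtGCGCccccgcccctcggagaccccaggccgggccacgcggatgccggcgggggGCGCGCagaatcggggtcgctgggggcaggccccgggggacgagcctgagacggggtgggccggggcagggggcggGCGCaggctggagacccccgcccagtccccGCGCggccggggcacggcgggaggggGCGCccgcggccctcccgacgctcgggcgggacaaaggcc
SEMA3E: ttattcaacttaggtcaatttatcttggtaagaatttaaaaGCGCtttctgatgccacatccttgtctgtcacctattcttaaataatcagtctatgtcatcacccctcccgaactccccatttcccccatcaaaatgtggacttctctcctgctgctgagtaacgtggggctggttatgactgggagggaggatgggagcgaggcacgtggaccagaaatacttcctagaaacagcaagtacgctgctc
The EFNB2 window held 8 copies of GCGC and 40 CpG, that of EPHB2 10 and 41, that of EFNA2 7 and 36, and that of SEMA3E 1 and 6. These 4 are not typical of the called genes: that of ROBO1 held 1 copy and 9 CpG and that of PLXNB1 2 copies and 4 CpG, while SEMA7A, which fell, held 3 copies and 17 CpG. A window was listed for 54 of the 60 guidance genes, and 44 of them, 81.5%, held GCGC. The share was 81.1% of the windows listed for 10259 tested genes and 53.4% of all 35116 windows. The 31 tested guidance genes that were not called and had a window held the motif in 26, and the 6 higher genes with a window held it in 5. The share of guidance genes with the motif was thus near that of tested genes in general. No binding data were used here, although the study mapped SAMD1 binding in PaTu8988t cells by ChIP-seq.

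**Figure D2:**
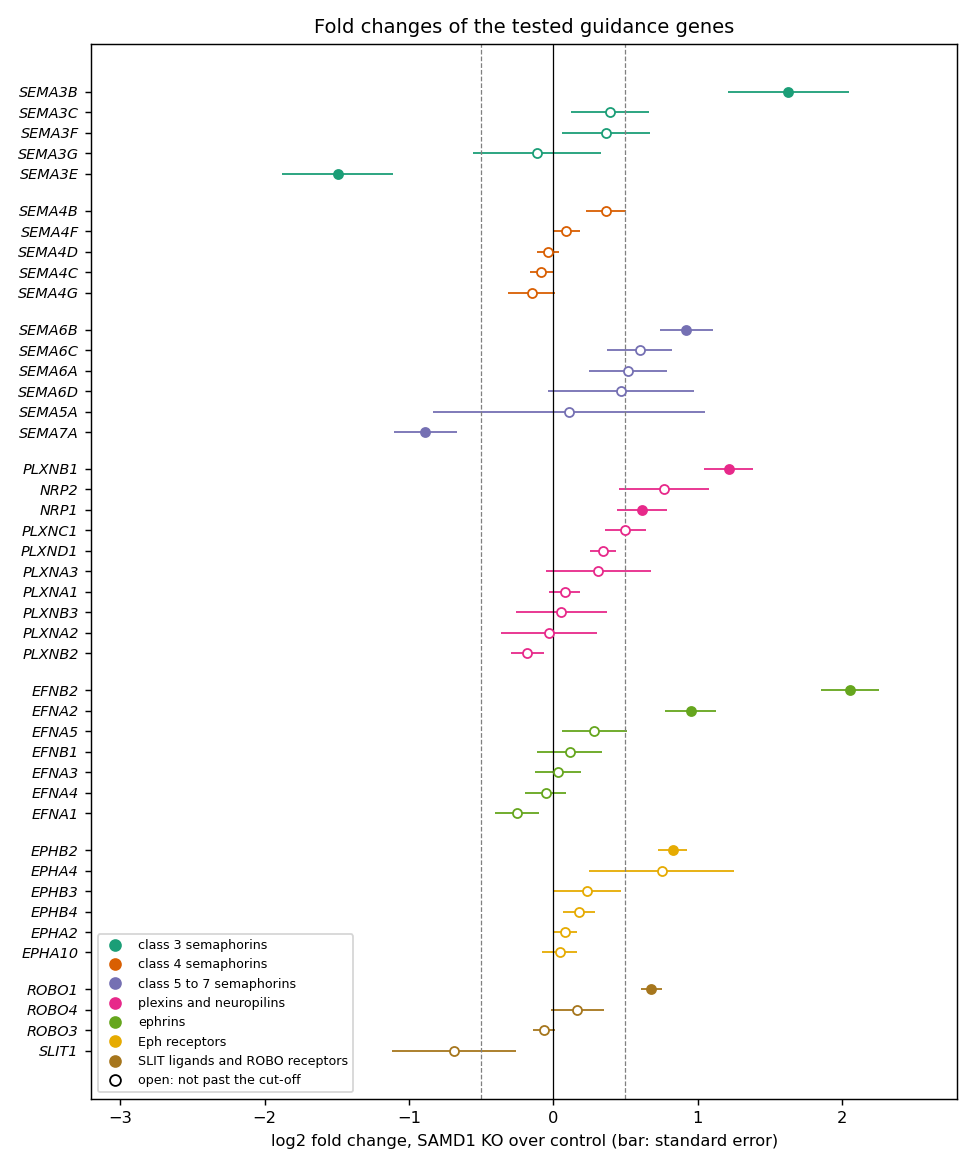
Log2 fold change of SAMD1 KO over control for the 43 tested guidance genes, grouped by role, with the standard error as a bar, filled points for genes past the cut-off and dashed lines at 0.5 and -0.5. EFNB2 lies farthest to the right at 2.06 and SEMA3E farthest to the left at -1.49. The class 4 semaphorins are all open points, between -0.15 and 0.37.

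The class 3 semaphorins moved in both directions. SEMA3E, a secreted ligand that binds plexin-D1 without a neuropilin, lies on chromosome 7 (chr7:83363238-83649139). Its normalized counts were 396, 348 and 333 in control cells and 63.3, 165 and 193 in the clones. All clones were lower, and clone 1 by far the most. The control mean was 2.56 times that of the clones, and the log2 fold change was -1.49 ± 0.39 (SE, adjusted p = 0.0454). When control 1, 2 or 3 was left out, SEMA3E no longer passed the cut-off, with log2 fold changes of -1.42 to -1.55 in those fits, while without clone 1 it was -0.9996 and passed.

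SEMA3B, a secreted ligand known as a candidate tumour suppressor of the short arm of chromosome 3, was low in control cells and rose (chr3:50267558-50277546). It had 19.4, 20.5 and 20.6 normalized counts in control cells and 55.4, 128 and 37.8 in the clones. The clones did not overlap with the controls but spread widely among themselves, and clone 2 was the highest. The mean was 3.65-fold that of control cells, with a log2 fold change of 1.63 ± 0.42 (SE, adjusted p = 0.0454). Leaving out clone 2 gave 1.14, and the call was lost when any control library, or clone 1, was left out. A gene on the opposite strand, SEMA3B-AS1, overlaps SEMA3B, and the strand setting of the counting is not given in the sources used here. The same kind of overlap exists for 7 of the 10 called genes, and not for EFNA2, SEMA6B and PLXNB1.

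SEMA3C was the most abundant class 3 semaphorin per kb in control cells, at 265 ± 10.9, and was at 367 ± 137 in the clones (SD, n = 3). It had 1589, 1564 and 1690 normalized counts in control cells and 1293, 2886 and 2537 in the clones. Clone 1 was below and the other clones above all controls, and SEMA3C did not pass, with a log2 fold change of 0.39 ± 0.27 (SE, adjusted p = 0.375). SEMA3F and SEMA3G were spread over the clones as well. SEMA3F had 507, 354 and 204 in the clones against 231 to 287 in control cells. SEMA3G had 65.3, 199 and 238 against 149 to 162. Neither passed, and clone 1, the highest for SEMA3F, was the lowest for SEMA3G, SEMA3C and SEMA3E. SEMA3D had 0 reads in every library and SEMA3A at most 10.4 normalized counts.

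The class 4 semaphorins, which are transmembrane ligands, held none of the called genes with limma, edgeR or DESeq2. As 5.77% of all tested genes were called higher and 2.08% lower, 0 calls among 5 is no result about this class. At an unadjusted p below 0.05, 1 of the 5 was higher and 0 lower, where the shares of all tested genes were 16.1% and 13.5%. The 5 tested members of the class had log2 fold changes from -0.15 to 0.37 and a median of -0.04. SEMA4C was the most abundant of them, at 338 ± 19.7 per kb in control cells and 320 ± 30.0 in the clones (SD, n = 3). SEMA4B came nearest to the cut-off. It had 1075, 1080 and 1113 normalized counts in control cells and 1337, 1181 and 1754 in the clones, which did not overlap, and its log2 fold change was 0.37 ± 0.14 (SE, adjusted p = 0.126). SEMA4D, the ligand of plexin-B1, differed by less than the spread within the groups, with 1049 to 1105 in control cells and 998 to 1147 in the clones. SEMA4A reached at most 3.43 normalized counts.

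Of the class 5 to 7 semaphorins, SEMA7A fell and SEMA6B rose. SEMA7A is a GPI-anchored semaphorin that acts through plexin-C1 and integrins (chr15:74409289-74433958). It was the most abundant gene of this group per kb in control cells, at 76.4 ± 6.93, and fell to 42.3 ± 11.6 in the clones (SD, n = 3). Its normalized counts were 270, 320 and 281 in control cells and 188, 110 and 184 in the clones, with clone 2 the lowest and no overlap. The log2 fold change was -0.89 ± 0.22 (SE, adjusted p = 0.0397), and the call was lost when any control library was left out, at values of -0.81 to -0.94.

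SEMA6B, a transmembrane ligand of class A plexins, had 146, 142 and 113 normalized counts in control cells and 205, 308 and 256 in the clones (chr19:4542593-4581776). The clones lay above the controls without overlap. SEMA6B rose 1.91-fold, with a log2 fold change of 0.92 ± 0.18 (SE, adjusted p = 0.0195). The other class 6 members tested, SEMA6A, SEMA6C and SEMA6D, had log2 fold changes of 0.52, 0.60 and 0.47 and did not pass, with adjusted p from 0.131 to 0.577. SEMA6D had a control mean of 8.93 and reached the minimum only through the clones. SEMA5B had 0 reads in 5 of the libraries and 6.91 normalized counts in clone 2.

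SEMA5A, a transmembrane semaphorin with thrombospondin repeats, had the widest spread over the clones, and is named after its values were seen. Its normalized counts were 44.6, 47.9 and 64.1 in control cells and 66.3, 229 and 10.8 in clones 1, 2 and 3. Clone 2 was far above and clone 3 far below all control libraries. The log2 fold change of 0.11 ± 0.94 (SE, adjusted p = 0.953) therefore describes none of the clones.

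On the receptor side PLXNB1 and NRP1 rose, 20% of the 10 plexins and neuropilins tested, where 5.77% of all tested genes did. Of these 10, 0 were called lower, beside 2.08% of all tested genes, which is no result about them. PLXNB1 codes for plexin-B1, the receptor of SEMA4D (chr3:48403854-48430086). It had 265, 286 and 277 normalized counts in control cells and 551, 854 and 562 in the clones. All clones were well above the controls, with clone 2 the highest. PLXNB1 rose 2.37-fold, with a log2 fold change of 1.21 ± 0.17 (SE, adjusted p = 0.00565), and kept both the call and an adjusted p below 0.05 when each library was left out in turn.

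NRP1 codes for neuropilin-1, a co-receptor of class 3 semaphorins and of VEGF (chr10:33177492-33336262). It had 75.5, 70.4 and 85.9 normalized counts in control cells and 103, 114 and 141 in the clones, without overlap. Its log2 fold change of 0.61 ± 0.17 (SE) passed the cut-off but not the adjustment (adjusted p = 0.0607), and the call held without 1 of the 6 libraries and was lost without each of the other 5, that is without any control library or without clone 2 or clone 3. NRP2, the other neuropilin, had 215, 204 and 189 in control cells and 320, 222 and 576 in the clones. NRP2 did not overlap either but clone 3 stood far above the rest, and NRP2 did not pass with limma (log2 fold change 0.76 ± 0.31 SE, adjusted p = 0.152). It passed with DESeq2 on the recovered reads but not with edgeR.

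PLXND1, the receptor of SEMA3E, and PLXNC1, the receptor of SEMA7A, came closest to the cut-off without passing it. PLXND1 had 1112, 1202 and 1135 normalized counts in control cells and 1632, 1443 and 1312 in the clones, without overlap, and a log2 fold change of 0.34 ± 0.09 (SE, adjusted p = 0.0490). It thus passed the adjusted p and missed the fold. PLXNC1 had 237, 262 and 301 in control cells and 336, 439 and 359 in the clones, without overlap, and a log2 fold change of 0.50 ± 0.14 (SE, adjusted p = 0.0612). Unrounded this was just under the limit of 0.5, and PLXNC1 passed with edgeR and with DESeq2 on the recovered reads, at 0.51 in both. On these values the ligands SEMA3E and SEMA7A were lower in the clones. Each one's plexin was higher in every clone than in every control library, but neither plexin was called with limma. A lack of overlap was seen in 37.8% of all tested genes, and both ligand calls were lost when any control library was left out. SEMA4D, the ligand of the called PLXNB1, had a log2 fold change of -0.04. A link between ligand and receptor levels was not tested.

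The most abundant plexins did not pass. PLXNB2 was the highest per kb in control cells, at 1339 ± 114, and was at 1189 ± 184 in the clones, and PLXNA1 was at 619 ± 39.7 and 658 ± 93.2 (SD, n = 3). The rise of PLXNB1 took it from 28.3 ± 1.04 to 67.1 ± 17.6 per kb. The summed plexin level per kb was 2272 ± 168 in control cells and 2287 ± 284 in the clones. PLXNA2 had 418, 432 and 385 normalized counts in control cells and 331, 271 and 728 in the clones, with clone 3 alone above the controls. PLXNA4 had 1 read in clone 2 and none elsewhere.

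**Figure D3:**
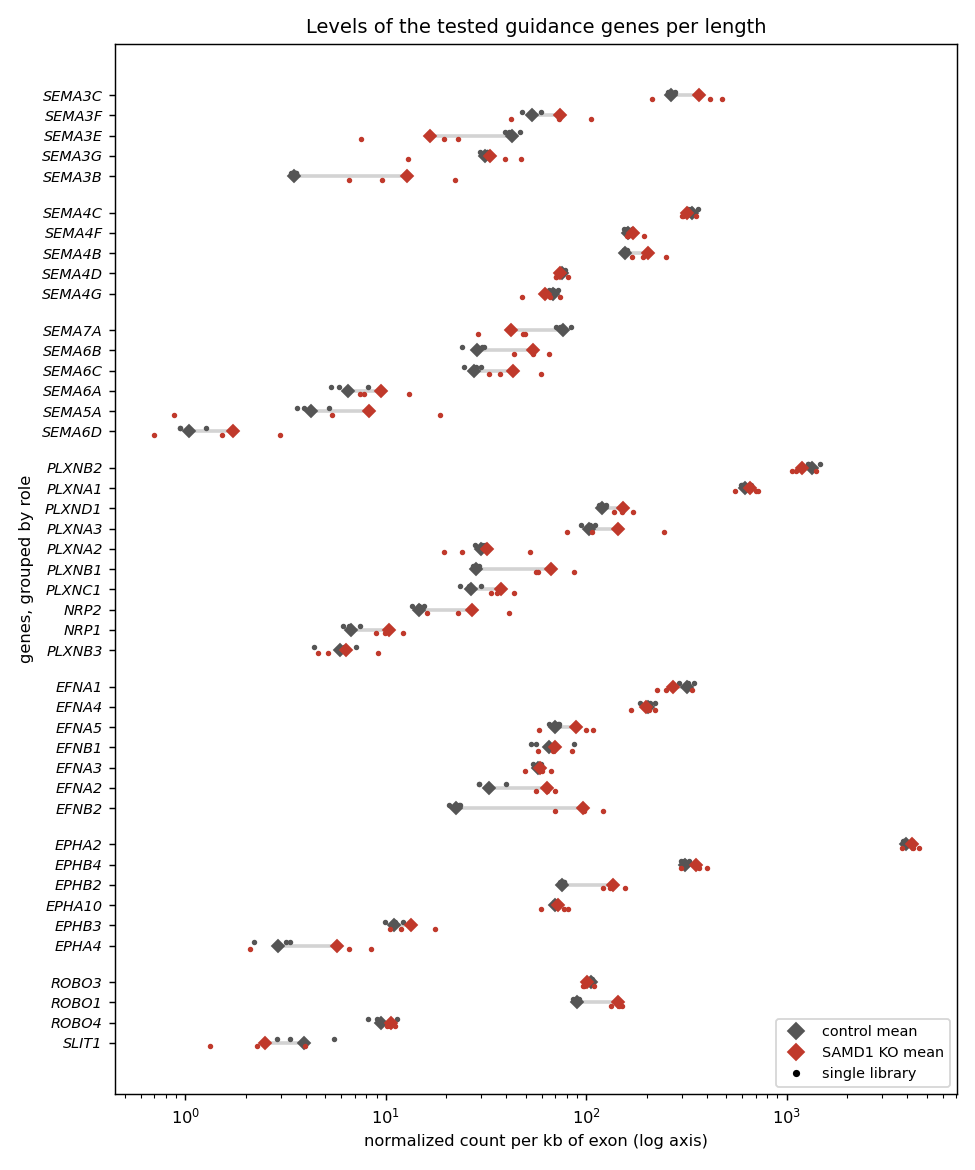
Normalized count per kb of exon, on a log axis, of the 43 tested guidance genes, grouped by role and ordered by the control mean. Diamonds are group means, grey for control and red for SAMD1 KO, and small dots are single libraries. EPHA2 lies far to the right at 3957 per kb in control cells, and EFNB2 moves from the lowest ephrin, at 22.5, to 96.3.

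In the SLIT and ROBO system 1 receptor rose. ROBO1, the receptor of SLIT ligands that keeps commissural axons from recrossing the midline, lies on chromosome 3 (chr3:78597239-79767998). Its normalized counts were 953, 1014 and 1002 in control cells and 1619, 1675 and 1465 in the clones. Both groups were tight and well apart, and the log2 fold change was 0.68 ± 0.07 (SE, adjusted p = 0.00213), a 1.60-fold rise that still passed when each library was left out in turn. ROBO1 went from 89.6 ± 2.93 to 144 ± 9.83 per kb. ROBO3 was the most abundant member in control cells, at 106 ± 0.731 per kb and at 101 ± 6.91 in the clones (SD, n = 3). ROBO3 and ROBO4, which are neighbours on chromosome 11, had log2 fold changes of -0.07 and 0.17 and did not pass.

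The SLIT ligands were scarce in both groups. SLIT1 had 50.3, 30.3 and 26.3 normalized counts in control cells and 20.8, 12.1 and 36.0 in the clones, which overlapped (log2 fold change -0.69 ± 0.43 SE, adjusted p = 0.328). SLIT2 reached at most 1.96 normalized counts and SLIT3 at most 5.73. ROBO2 had at most 1 read in a library. ROBO1 thus rose in cells that had few reads of any SLIT.

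**Figure D4:**
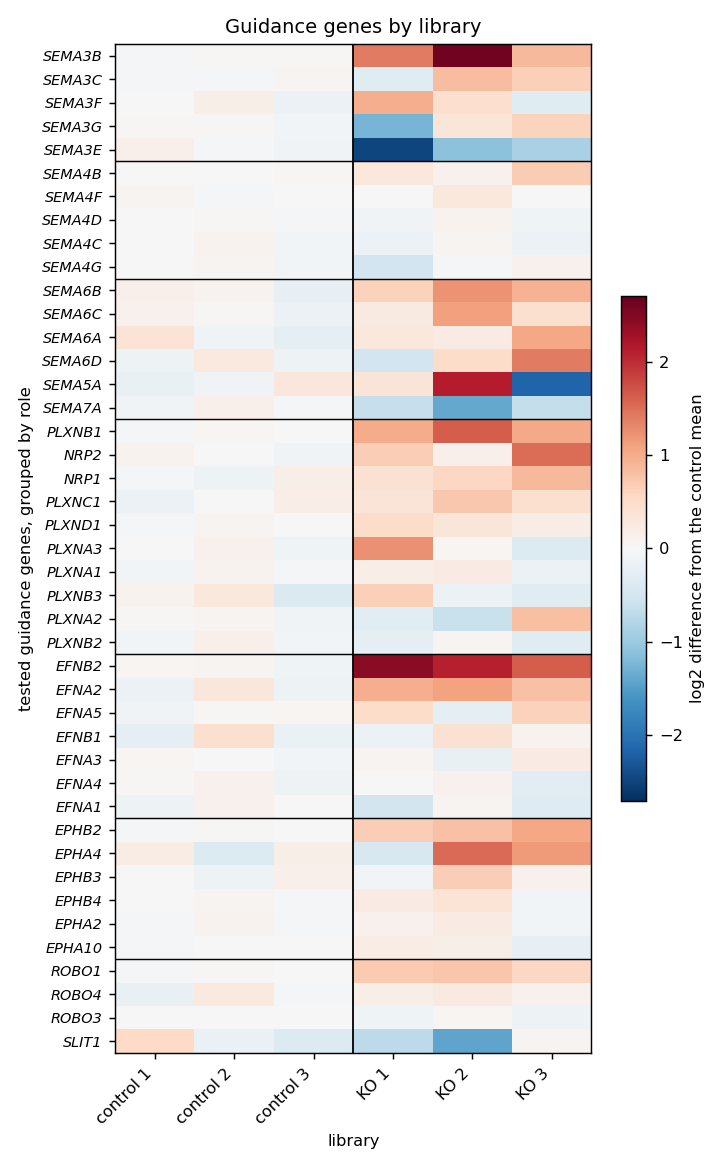
Log2 difference of each library from the control mean, for the 43 tested guidance genes grouped by role. Red is higher and blue lower than the control mean. The rows of EFNB2, EPHB2, ROBO1 and PLXNB1 are red in all 3 clones, while SEMA5A is red in clone 2, at 2.13, and blue in clone 3, at -2.16.

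The clones varied more than the control replicates. The SD of log2 values was larger among the clones than among the controls for 40 of the 43 guidance genes and for 82.8% of all tested genes. Its median was 0.29 among the clones and 0.10 among the controls for the guidance genes, and 0.15 and 0.06 over all tested genes. For 12 of the 43 genes the highest clone was more than 2 times the lowest, and for 0 of them was this so among the controls. For 26 genes at least 1 clone was above and at least 1 below the control mean. For neither count was the share over all tested genes taken, so they do not set the guidance genes apart. As each clone gave 1 library, a difference between clones has no replicate check.

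Some of this variation ran along the chromosomes. For each gene the median log2 difference of its tested neighbours from the control mean was taken in each clone. The neighbours were up to 20 genes on each side in order of position, fewer near a chromosome end. Around PLXNA3 and PLXNB3 on the X chromosome this neighbour median was 0.90 and 0.91 in clone 1 and between -0.07 and 0.04 in the other clones. PLXNA3, named after its values were seen, had 1218, 1297 and 1108 normalized counts in control cells and 2848, 1256 and 935 in the clones. Clone 1 alone was above the controls. Its log2 fold change of 0.31 was 0.04 once the neighbour median was subtracted in each library.

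Around EFNA5 and SEMA6A on chromosome 5 the neighbour median was -0.68 and -0.57 in clone 2 and near 0 in the other clones. EFNA5, an ephrin-A ligand also named after its values were seen, had 375, 413 and 420 normalized counts in control cells and 572, 333 and 619 in the clones. Clone 2 was the lowest of all libraries and the other clones were above the controls. Its log2 fold change was 0.28 ± 0.22 (SE, adjusted p = 0.438), and 0.52 with an adjusted p of 0.00836 after the neighbour medians were subtracted. Without clone 2 it was 0.56, with an adjusted p of 0.0145.

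Around SEMA3B, SEMA3F, SEMA3G and PLXNB1, which lie within a few megabases on chromosome 3, the neighbour median was 0.23 to 0.29 in clones 1 and 2 and between -0.02 and 0.03 in clone 3. After subtraction the log2 fold change of PLXNB1 was 1.04 (adjusted p = 0.00313) and that of SEMA3B 1.47 (adjusted p = 0.0324), and both still passed. EFNA2 and SEMA6B, both on chromosome 19, had neighbour medians of 0.19 and 0.11 in clone 2 and stayed at 0.94 and 0.94 after subtraction. For the other 6 called genes the neighbour medians lay between -0.13 and 0.08 and all 6 calls held after subtraction. The copy number of these regions was not measured.

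**Figure D5:**
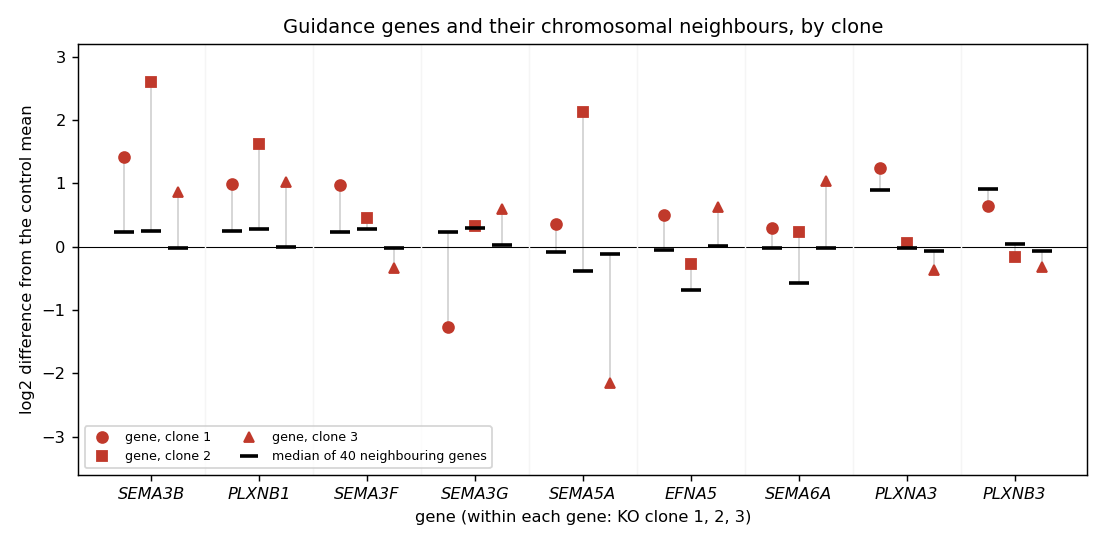
Log2 difference from the control mean in SAMD1 KO clones 1, 2 and 3 (circle, square and triangle, from left to right) for 9 guidance genes on chromosomes 3, 5 and X. A black bar marks the median of the neighbouring tested genes in the same clone, up to 20 on each side. PLXNA3 and its neighbours are both high in clone 1, at 1.24 and 0.90. SEMA3B is far above its neighbours in clone 2, at 2.60 against 0.25.

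Partners of these receptors, most of them cytoplasmic and some on the cell surface, were followed with a list of 57 genes, of which 53 were tested. Of these 7 rose, 13.2% beside 5.77% of all tested genes, with a median log2 fold change of 0.04. As only 2.08% of all tested genes were called lower, a count of 0 among 53 is no result about the partners. Without a fold limit 9 partners had an adjusted p below 0.05, or 16.98%. This share is close to the 13.0% of all tested genes. At an unadjusted p below 0.05 with no fold limit, 13 of the 53 were higher and 3 lower. The shares of all tested genes at that limit were 16.1% and 13.5%. With edgeR and with DESeq2 on the recovered reads 0 partners were called lower as well. The partners of plexins and neuropilins held 4 of the 7, or 22.2% of the 18 tested, beside 5.77% of all tested genes. CRMP1 and DPYSL2 code for collapsin response mediator proteins, which carry the class 3 semaphorin signal to the cytoskeleton. CRMP1 had 124, 114 and 143 normalized counts in control cells and 236, 383 and 350 in the clones (log2 fold change 1.32 ± 0.20 SE, adjusted p = 0.00719). DPYSL2 had 1472, 1474 and 1561 in control cells and 2759, 2145 and 2119 in the clones (0.63 ± 0.11 SE, adjusted p = 0.0110). The rest of this family on the list did not rise as a group. DPYSL3 and DPYSL4 did not pass, with log2 fold changes of 0.07 and -0.56 (limma adjusted p = 0.929 and 0.390). DPYSL5 had 0 reads in every library. FARP2, a Rac exchange factor bound to plexin-A1, rose by 0.52 ± 0.08 and RRAS, a small GTPase that plexins inactivate, by 0.51 ± 0.13 (log2, SE, adjusted p = 0.00912 and 0.0397). FARP2 and RRAS were under the fold limit, at 0.28 and 0.38, after subtraction of the neighbour medians. The RRAS call was also lost when any control library or clone 3 was left out, at 0.36 without clone 3, and the FARP2 call when control 1 or clone 1 was left out.

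Of the 18 tested partners of Eph receptors and ephrins 2 rose, 11.1% beside 5.77% of all tested genes. PTPN13 passed narrowly (log2 fold change 0.52 ± 0.14 SE, adjusted p = 0.0473). Its call was lost when any control library, clone 2 or clone 3 was left out. CHN1, which codes for chimaerin, a Rac-inactivating protein that acts below EphA4, had 914, 862 and 893 normalized counts in control cells and 1578, 1484 and 1579 in the clones. Both groups were tight and CHN1 had the smallest p of all partners (log2 fold change 0.80 ± 0.06 SE, adjusted p = 0.000724). Of the 17 tested partners of ROBO receptors 1 rose, GPC1, a share of 5.88% that is near the background of 5.77%. It codes for glypican-1, a heparan sulphate proteoglycan that binds SLIT, and had 1105, 1396 and 1125 in control cells and 1854, 2854 and 2071 in the clones (0.89 ± 0.17 SE, adjusted p = 0.0162). ENAH, which codes for a regulator of actin filament growth below ROBO, differed widely between clones and is named after its values were seen. It had 1742, 1863 and 1792 normalized counts in control cells and 2819, 336 and 446 in the clones, and so was above the controls in clone 1 and far below them in clones 2 and 3 (log2 fold change -1.26 ± 0.71 SE, adjusted p = 0.282). RND3, a GTPase that binds plexins, also named after its values were seen, had 2618, 2542 and 2566 in control cells and 1730, 1965 and 1804 in the clones. It missed the fold limit at -0.49 ± 0.06 (SE, adjusted p = 0.00411).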

How the data were processed

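Poly(A) RNA was sequenced (TruSeq Stranded mRNA) in 3 control and 3 SAMD1 KO libraries of PaTu8988t cells. The authors aligned reads with RNA-STAR to GenCode 43 (hg38), counted them per gene with featureCounts, per the labels, and normalized them with DESeq2. The strand setting is not given in the sources used here. The deposited values are a normalized count per gene, a signal equal to reads divided by a size factor for each library. Whole reads were recovered, since 100% of the values of a library were multiples of 1 step (tolerance 0.001). A deposited table of the authors' own comparison was not used, and 0 sample columns were left out.

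limma 3.58.1 (lmFit, eBayes with trend, R 4.3.3) was fitted to log2(normalized count + 1) over the 12773 genes with a mean of at least 10. The cut-off of 0.5 and 0.01 is that of the study, and p-values were adjusted over these genes by the Benjamini-Hochberg method. Samples were grouped by their labels. The test was tested on simulated data. Positions and exon lengths are from GENCODE 44 (hg38), and 182 symbols were matched by a synonym. The gene rule, the role, partner and marker lists, and the tests were chosen with earlier results of these data known. Full statistics are given for called genes and for the 3 others with the smallest p, and the most abundant gene per role is named. At most 6 called partners were to be named per direction, and PTPN13 was added to these. Alternatives were edgeR 4.0.16 and DESeq2 1.42.0 on recovered reads, pseudocounts of 0.1 and 10, other minimums, rescaling, a replicate block, leaving out each library, an adjusted p in the cut-off, and subtraction of regional medians.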

Additional observations from a re-analysis of the deposited data

How the results depend on the processing

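The count of 8 higher guidance genes stayed within 1.5 times under every alternative run, at 6 to 10, but its members changed. NRP1 and SEMA3B were each lost in some alternatives, and the other higher genes were called in all of them. PLXNC1, NRP2, EFNA5, EPHA4, SEMA3C and SEMA3F were each gained in at least 1. The 2 lower genes were 2 or 3 in every alternative except those without a control library, where the count was 0; without any library it ran from 0 to 2. PLXNA3 was at -0.15 without clone 1 and at up to 0.65 without clone 3. When each library was left out in turn, 12 of the 43 tested genes changed sign in some fit, 0 of them called, among them SEMA5A (-0.90 to 1.24), SEMA3G (-0.47 to 0.46) and PLXNA2 (-0.45 to 0.26). The 10 guidance genes with an adjusted p below 0.05 became 4 to 13 without a library, and 4, 5 and 4 without control 1, 2 and 3. With the replicate block they were 6, without PLXND1, SEMA3B, SEMA3E and SEMA7A. The labels give same-numbered libraries nothing in common but the number. The correlations of their deviations from the group means were 0.04, 0.13 and 0.03. Control 3 correlated slightly better with clone 1 (0.036) than with clone 3 (0.032), and each other library correlated best with its own number. Whether same-numbered libraries shared a batch was not tested. The higher partners, 7, were 4 to 8 without a library, and 4 without control 1. The lower partners, 0, became 1 after subtraction of regional medians (RND3) and 0 to 1 without a library. Of 224 refits of 15 named genes, 198 left direction and call as they were, 17 lost a call, 8 gained it and 1 changed sign; EPHB1 could be tested only with no minimum. Rescaling moved the median log2 fold change of all genes from -0.01 to 0.01. The cause of these changes was not tested. Depth limits the 17 guidance genes under the minimum, of which 10 had at most 3 reads in any library.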
